A study of Rattus norvegicus with 24 samples.

Results

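Striatal projection neuron genes were followed in RNA sequencing of 24 fetal rat brains. The 9 genes, Drd1, Tac1, Isl1, Ebf1, Drd2, Penk, Adora2a, Rgs9 and Ppp1r1b, were taken by symbol from the 17420 entries of the deposited table. All 9 were above the lowest possible value in all 24 pups, and all 9 were among the 13371 genes tested. The samples were single Sprague-Dawley pups on embryonic day 18, labelled as hippocampus and neocortex, a dissection whose name does not include the striatum. The dams formed 4 groups with 6 pups each. Saline dams were injected with saline on gestational day 17, MAM dams with methylazoxymethanol acetate at 22 mg/kg, which blocks the division of neural progenitors, and Poly I:C dams with polyinosine:cytosine at 7.5 mg/kg, which imitates a viral infection. Pups were collected 18 hours later. Low Protein dams ate food with 6.1% protein from gestational day 11 to day 18. Control dams, taken here as the saline group, ate an isocaloric diet with 20.3% protein over the same days. Whether Low Protein dams were also injected, and what MAM and Poly I:C dams ate, is not given in the sources used here. Each group held 3 pups from each of 2 litters, so that pups of 1 litter shared a dam and were not independent. The labels do not state the litter. It was inferred from the number in the sample name, 2.1 being taken as a pup of the second litter.

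Striatal projection neurons are the GABA-releasing output neurons of the striatum and arise from the lateral ganglionic eminence of the ventral telencephalon. They fall into a striatonigral class, which carries D1 dopamine receptors and makes substance P, and a striatopallidal class, which carries D2 dopamine and adenosine receptors and makes enkephalin. Both classes share a signalling system around cyclic AMP, in which the regulator of G protein signalling Rgs9 and the phosphatase inhibitor Ppp1r1b (DARPP-32) take part. The striatum lies directly beneath the cortex at this age. Several of the 9 genes are also used outside it, for example Isl1 in cholinergic and hypothalamic neurons and Penk and Tac1 in neurons of several forebrain regions.

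Promoter sequences were available for 6 of the 9 genes in a RefSeq table of the GRCr8 assembly. The 250 bases before the annotated start are shown for 3 of them, chosen by their results. Drd2 followed the mean of the other 8 genes most closely over the pups (r = 0.95, group means removed). Rgs9 had the lowest such r (0.21, with Ppp1r1b at 0.26), and Tac1 was the single gene to pass the test in a treatment group.
Drd2, chr8:58605153-58605402 (+ strand): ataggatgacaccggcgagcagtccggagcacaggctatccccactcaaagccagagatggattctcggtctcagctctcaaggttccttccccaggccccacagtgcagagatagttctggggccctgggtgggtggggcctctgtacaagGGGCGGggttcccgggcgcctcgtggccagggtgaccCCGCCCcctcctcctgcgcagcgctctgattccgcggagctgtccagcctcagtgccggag
Rgs9, chr10:94770388-94770637 (- strand): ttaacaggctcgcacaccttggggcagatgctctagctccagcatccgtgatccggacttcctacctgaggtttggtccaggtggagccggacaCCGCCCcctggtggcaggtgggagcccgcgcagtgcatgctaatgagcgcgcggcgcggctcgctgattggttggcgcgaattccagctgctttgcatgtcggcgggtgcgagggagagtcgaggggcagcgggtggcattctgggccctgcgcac
Tac1, chr4:36645333-36645582 (+ strand): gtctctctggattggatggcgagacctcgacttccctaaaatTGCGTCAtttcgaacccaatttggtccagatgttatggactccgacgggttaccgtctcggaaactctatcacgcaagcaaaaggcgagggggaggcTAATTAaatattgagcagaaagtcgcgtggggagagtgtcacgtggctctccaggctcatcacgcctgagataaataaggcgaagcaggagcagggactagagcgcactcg
Capitals mark matches to 4 motifs searched on both strands, namely TGACGTCA (the cyclic AMP response element), TGCGTCA (a variant of it), TAATTA (a core recognised by many homeodomain factors) and GGGCGG (the GC box). No matches overlapped. Drd2 had GC boxes from -98 to -93 and, on the opposite strand, from -61 to -56, counted from the annotated start. Rgs9 had 1 GC box, on the opposite strand, from -156 to -151. Tac1 had no GC box in this window, but the variant element from -208 to -202 and the homeodomain core from -111 to -106. Among 33469 promoters of the table, 1.59% held TGACGTCA, 1.66% TGCGTCA, 4.86% TAATTA and 30.5% GGGCGG in the same window. GC content was 66.0% for Drd2, 65.6% for Rgs9 and 52.4% for Tac1, against a median of 51.2% over all promoters. These matches describe the letters of the windows and say nothing of binding. The annotated starts were not checked against measured transcription starts, and the window of Drd1, not shown, ended like an intron.

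The deposited values are TPM with an added offset of 0.0001, and they behaved as reads divided by the genomic length of the gene, introns included. A gene with long introns therefore has a low value, and levels were compared between pups, not between genes. The table gives no read counts, and depth was estimated at 24.9 to 64.7 M reads (megareads) per pup, and each of the 9 genes rested on 25.4 to 1763 estimated reads in a pup. The forebrain origin of the samples was visible in 8 pallial genes, which were present in all pups and summed to 127 to 288 TPM, led by Neurod6 (46.8 to 127 TPM) and Neurod2 (50.8 to 114 TPM). Saline pup 2.1 and Low Protein pup 1.1 stood apart from the rest in the 9 genes, and many results that rest on them are given with and without them. Others are given with all pups only. Among these are the shares of variation, the percentiles of the SD within groups and the median r by group. The r of each gene with the mean of the other 8 and with all other genes singly is also given with all pups only.

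The striatonigral genes were led by Saline pup 2.1, which was the highest of 24 pups for all 4 of them. Drd1, the D1 dopamine receptor, ranged from 0.635 TPM in Low Protein pup 2.3 to 2.81 TPM in Saline pup 2.1, a 4.44-fold span. Its lowest, median and highest values were 0.980, 1.35 and 2.81 TPM in saline, 0.635, 1.27 and 2.60 TPM in Low Protein, 0.844, 1.02 and 1.17 TPM in MAM, and 0.815, 1.16 and 1.53 TPM in Poly I:C. Low Protein thus held both the lowest pup of all and 2 of the 3 highest, while the MAM pups lay close together. In bulk tissue, fewer striatal cells and less RNA per striatal cell cannot be told apart.

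Tac1, the precursor of substance P, had lowest, median and highest values of 0.525, 0.836 and 1.71 TPM in saline and of 0.322, 0.795 and 0.915 TPM in Low Protein. They were 0.427, 0.499 and 0.598 TPM in MAM and 0.310, 0.634 and 1.00 TPM in Poly I:C. All 6 MAM pups were below the saline median, but the groups overlapped. Low Protein fell into 4 pups between 0.757 and 0.915 TPM and 2 pups, one in each litter, at 0.332 and 0.322 TPM.

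Isl1, a LIM homeodomain factor of developing striatonigral neurons, had the widest span of the 9 genes, 32.1-fold. It was 0.0343 TPM in Low Protein pup 1.1, on 25.4 estimated reads, and 1.10 TPM in Saline pup 2.1. The other 22 pups lay between 0.198 and 0.662 TPM. Ebf1, a transcription factor of striatonigral differentiation, went from 0.00623 TPM in the same Low Protein pup to 0.0363 TPM in the same saline pup. Its medians were 0.0170 TPM for Poly I:C, 0.0159 for Low Protein, 0.0154 for saline and 0.0140 for MAM.

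The striatopallidal genes had the same pups at their ends, with an exception in Adora2a. Drd2, the D2 dopamine receptor, had lowest, median and highest values of 0.0484, 0.0615 and 0.119 TPM in saline, 0.0190, 0.0639 and 0.0837 TPM in Low Protein, 0.0409, 0.0528 and 0.0645 TPM in MAM, and 0.0416, 0.0670 and 0.0870 TPM in Poly I:C. Low Protein pup 1.1 was the lowest of the 24 and Saline pup 2.1 the highest. Penk, the enkephalin precursor, varied less, from 1.44 TPM in Low Protein pup 1.1 to 4.67 TPM in Saline pup 2.1, with group medians of 3.53, 3.45, 3.42 and 3.33 TPM in the order saline, Low Protein, MAM, Poly I:C. Adora2a, an adenosine receptor, ranged from 0.489 TPM in Low Protein pup 2.3 to 1.13 TPM in Low Protein pup 2.2, a 2.31-fold span that was the narrowest of the 9 genes. Both of its extremes thus came from 1 litter.

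The genes shared by both classes behaved differently from each other. Rgs9 ranged from 0.0261 TPM in MAM pup 2.3 to 0.0733 TPM in Saline pup 2.1, and its values fell apart within the groups. In Low Protein, 4 pups lay between 0.0266 and 0.0302 TPM and the other 2 at 0.0559 and 0.0621 TPM. Ppp1r1b, which relays dopamine signals by inhibiting protein phosphatase 1, ranged from 1.19 TPM in Low Protein pup 2.3 to 3.58 TPM in Poly I:C pup 2.2. Saline pup 2.1, at 2.77 TPM, and Low Protein pup 1.1, at 2.13 TPM, were at neither end.

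**Figure D1:**
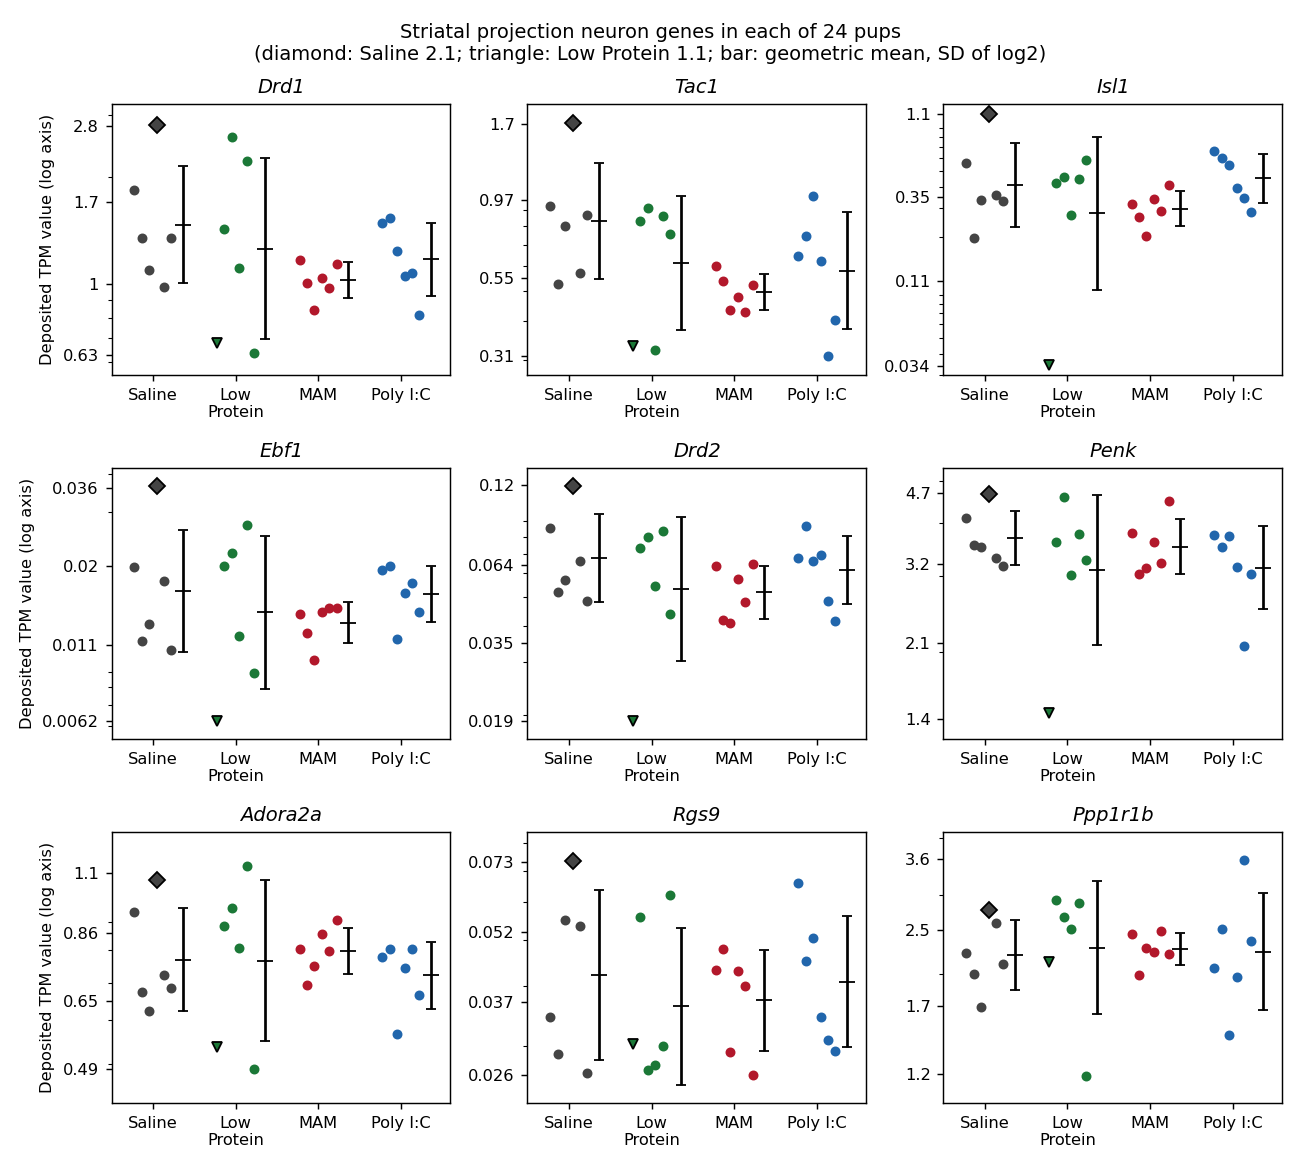
Deposited TPM value of each of the 9 genes (log axis, a panel per gene) in each of 24 pups, by maternal treatment group. Points are pups, with Saline 2.1 as a diamond and Low Protein 1.1 as a triangle, and bars give the geometric mean with the SD of the log2 values (n = 6). The diamond is the highest point in 7 panels and the triangle the lowest in 4.

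Counted over the set, Saline pup 2.1 was the highest of 24 pups for 7 of 9 genes and among the top 3 for 8. Low Protein pup 1.1 was the lowest for 4 genes and among the bottom 3 for 7. Low Protein pup 2.3 was the lowest for 3 genes, Drd1, Adora2a and Ppp1r1b, but at 0.582 and 0.0621 TPM it had the highest Low Protein values of Isl1 and Rgs9. The mean log2 level of the 9 genes, set to 0 at the saline mean, was 0.81 in Saline pup 2.1 and -1.30 in Low Protein pup 1.1. Its range was -0.41 to 0.81 for saline, -1.30 to 0.25 for Low Protein, -0.48 to 0.15 for Poly I:C and -0.55 to -0.14 for MAM. These ranges overlap, and every MAM pup was below the saline mean, which pup 2.1 raises. The median saline pup was at -0.15 and the median MAM pup at -0.26.

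Of the variation in log2 value, differences among the 4 groups took 0.422% (Ppp1r1b) to 21.6% (Tac1), differences between litters of a group 4.49% (Adora2a) to 21.0% (Ppp1r1b), and differences between pups of a litter 61.3% (Tac1) to 92.2% (Adora2a). Of the 23 degrees of freedom, these sources hold 3, 4 and 16 (13.0%, 17.4% and 69.6%). The SD within groups was also ranked among all tested genes that averaged 100 estimated reads or more. Isl1 was at percentile 99.8, and Tac1, Ebf1, Drd1, Drd2 and Rgs9 were between percentiles 97.5 and 98.6. Penk (percentile 92.7), Ppp1r1b (92.1) and Adora2a (87.9) varied less.

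The spread itself was unequal between groups. The SD of log2 values was smallest in MAM for 8 of 9 genes and largest in Low Protein for 8 of 9, with medians over the genes of 0.71 for Low Protein, 0.55 for saline, 0.39 for Poly I:C and 0.21 for MAM. Leaving out Saline pup 2.1 gave a saline median of 0.35, and without Low Protein pup 1.1 the Low Protein median was 0.54. The SD stayed above that of MAM for 8 and 9 genes respectively in these groups of 5 pups. The difference in spread was not tested.

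Whether the 9 genes rise and fall together over the pups was asked with Pearson's r and Spearman's rho of the log2 values for all 36 pairs, each with a permutation test and Benjamini-Hochberg adjustment over the 36. The median r was 0.57, 32 pairs were positive, and 24 had an adjusted p under 0.05, 21 of them also by rho. Dividing the set by class did not divide the correlations. The median r was 0.69 within the striatonigral genes (6 pairs), 0.70 within the striatopallidal genes (3 pairs) and 0.74 between the classes (12 pairs).

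The closest pair, Drd2 and Ebf1, joined the 2 classes. It had r = 0.88 and rho = 0.84 (adjusted permutation p 7.2e-05 and 0.00012, n = 24). Without the 2 pups farthest from the median of Ebf1, r was 0.78. The pups left out were chosen on 1 gene of each pair and can differ between pairs. For the 2 dopamine receptors, Drd1 and Drd2, r was 0.81 and rho 0.82 (adjusted permutation p 7.2e-05 and 0.00012, n = 24). Without the 2 pups farthest from the median of Drd1, r was 0.77. Isl1 and Drd2, the next closest, had r = 0.87 and rho = 0.78 (adjusted permutation p 7.2e-05 and 0.00027, n = 24). Their r fell to 0.65 without the 2 pups farthest from the median of Isl1. Isl1 and Adora2a depended on the extremes, with r = 0.45 for all pups and 0.083 without the same 2.

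Rgs9 and Ppp1r1b stood outside this pattern. Among the 21 pairs without them, the median r was 0.70, all 21 were positive and 20 passed the adjusted threshold, the exception being Tac1 with Adora2a (r = 0.28). Rgs9 passed in 2 of its 8 pairs, with Isl1 and Tac1 (r = 0.48 for both), and its median r was 0.26. Ppp1r1b passed in 2 of 8, with Adora2a (r = 0.74) and Ebf1 (r = 0.57), and its median r was 0.14. With each other, Rgs9 and Ppp1r1b had r = -0.28 (permutation p 0.194, n = 24).

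**Figure D2:**
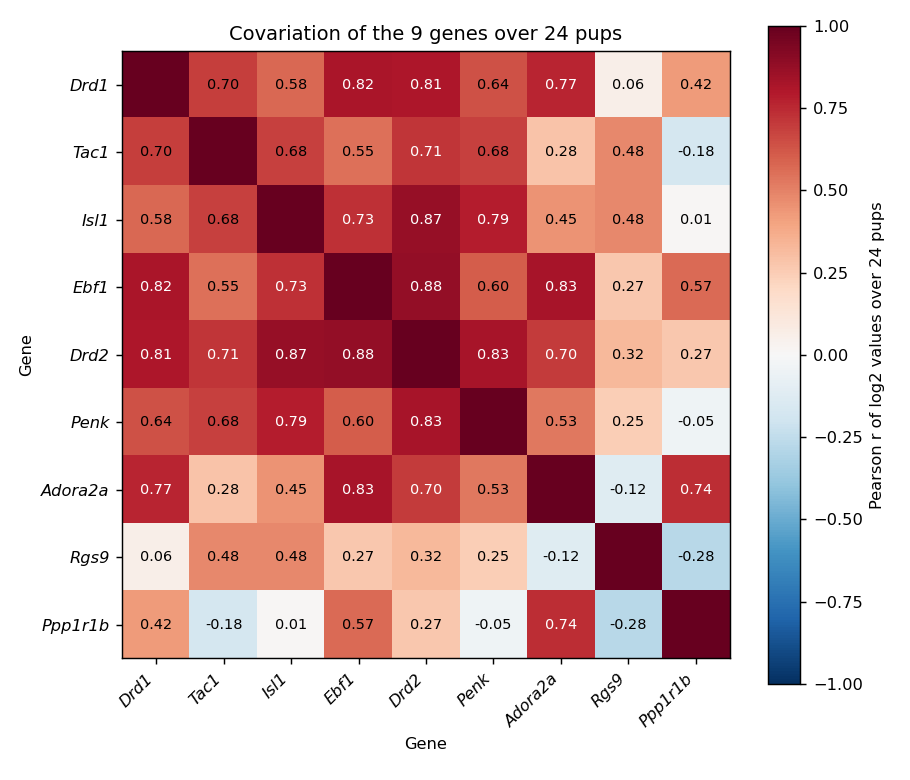
Pearson r of log2 values over 24 pups for each of the 36 pairs of the 9 genes, printed in each cell and coloured from -1 (blue) to 1 (red). The block from Drd1 to Adora2a is positive throughout (0.28 to 0.88). The rows of Rgs9 and Ppp1r1b are mostly paler or blue, except Ppp1r1b with Adora2a (0.74) and Ebf1 (0.57).

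The median r over 36 pairs was 0.60 after group means and 0.63 after litter means were subtracted. Without Saline pup 2.1 and Low Protein pup 1.1, the median r was 0.39 over 36 pairs and 0.58 over the 21 pairs without Rgs9 and Ppp1r1b, with 28 and 20 positive, and 15 and 13 pairs passed the adjusted threshold by the permutation test (n = 22). By group, the median r was 0.77 for saline, 0.67 for Low Protein, 0.49 for Poly I:C and 0.44 for MAM, each over 6 pups and given as a description. The permutation test treats the pups as independent, although pups of a litter share a dam.

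The balance of the classes was also read within pups. The log2 ratio of Drd1 to Drd2 ranged from 3.86 to 5.16 over the 24 pups, with medians of 4.54 for Low Protein, 4.49 for saline, 4.27 for MAM and 4.26 for Poly I:C. The log2 ratio of Tac1 to Penk had medians of -2.12, -2.14, -2.88 and -2.44 in the same order, and ranged from -2.76 to -1.45 in saline and from -3.11 to -2.50 in MAM. These ratios hold the gene lengths and serve for comparison between pups alone, and they were not tested.

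The genes most like the set were named by r with the mean of its 9 standardized log2 values after group means were subtracted. The closest of 13362 other genes was Rxrg (r = 0.95), a retinoid X receptor expressed in striatal neurons, which ranged from 0.0409 to 0.710 TPM. Gad2, an enzyme of GABA synthesis (0.91), and the soluble guanylyl cyclase subunits Gucy1a3 (0.91) and Gucy1b3 (0.87) followed it. Sox8 (0.89), the striatal G protein subunits Gng7 and Gnal (both 0.87), Rasgrp1 (0.87), Nexn (0.86), Foxp2 (0.86), Akap5 (0.86) and Zfp503 (0.85) completed the 12 highest. The 3 lowest were Hopx (-0.79), a gene of radial glia, Tspan15 (-0.74) and Lix1 (-0.71). Over all 13362 genes the median r was 0.025 and 22 genes were above 0.8. Over the 22 pups other than Saline pup 2.1 and Low Protein pup 1.1, which lay at the ends of that mean, these were 0.19 and 11 genes. Rxrg was then at 0.86, Gad2 at 0.82 and Rasgrp1 at 0.86, the 12 genes lay between 0.69 (Zfp503) and 0.86, and 7 of them were still among the 12 highest. Hopx was at -0.67, Tspan15 at -0.59 and Lix1 at -0.49.

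Other genes of the striatum moved with the 9 over the pups. Of 26 genes in 4 striatal lists, 25 had an r above 0 with the mean of the set and 16 (61.5%) an r above 0.5, against 3.52% of all genes. The median r was 0.76 for 7 striatal transcription factors, among them Foxp1 (0.76), Foxp2 (0.86) and Bcl11b (0.63), 0.67 for 3 striatonigral genes (Pdyn, Chrm4 and Zfp521), 0.49 for 4 striatopallidal genes (Gpr6 0.47, Gpr52 0.0078 and Sp9 0.50 among them) and 0.48 for 12 signalling genes (Pde10a 0.36 and Pde1b 0.18 among them). Several of these transcription factors are also used in the cortex. Cnr1, the cannabinoid receptor, was the single gene below 0 (r = -0.12). Over the 22 pups, all 26 were above 0 and 14 (53.8%) above 0.5, against 8.71% of all genes, with medians of 0.69 for the transcription factors, 0.54 for signalling, 0.44 for striatonigral and 0.34 for striatopallidal genes.

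Markers of neighbouring territories moved with the set as well. The median r was 0.62 for 7 ganglionic eminence genes (Dlx1 0.62, Dlx2 0.56 and Dlx5 0.84 among them), 0.60 for 4 genes of cholinergic neurons (Chat 0.48, Slc5a7 0.57 and Slc18a3 0.71 among them) and 0.55 for 5 genes of the medial ganglionic eminence (MGE; Nkx2-1 0.56, Lhx6 0.55 and Lhx8 0.68 among them). For 8 pallial genes the median r was -0.33, and only Tbr1 was above 0 (0.025), while Fezf2, a factor of deep-layer cortical neurons, was at -0.62. The medians were 0.17 for Cajal-Retzius cells, 0.13 for thalamus, -0.041 for hippocampus, -0.052 for vessel wall, -0.13 for meninges and -0.14 for hypothalamus. Over the 22 pups the medians were 0.49 for cholinergic, 0.44 for MGE and 0.41 for ganglionic eminence genes. The pallial median was then -0.038, with 3 of 8 genes above 0, so that its distance from 0 rested on the 2 pups. The signs also turned for hippocampus (0.15), meninges (0.054), vessel wall (0.028), thalamus (-0.041) and Cajal-Retzius cells (-0.0038), and hypothalamus was at -0.16. Eya1, Dlx6, Emx1, Eomes and Trp73 were not analysed here, and Hmx3 was below the filter.

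Rgs9 and Ppp1r1b also stood at an end of the 9 genes for some of these lists. Rgs9 had a median r of 0.69 with the hypothalamic genes, 0.68 with the thalamic and 0.67 with the Cajal-Retzius genes, where Drd1 had -0.33, -0.036 and -0.044. Tac1 (0.29, 0.20 and 0.28) and Isl1 (0.11, 0.28 and 0.22) lay between them. With the striatal transcription factors, Rgs9 had 0.054 and Drd1 0.71. Ppp1r1b had 0.52 with these transcription factors, within the range of the other genes (0.054 to 0.81). It had -0.50 with the hypothalamic genes, where Adora2a had -0.43, and 0.27 with the pallial genes. Tac1 had the lowest r with the pallial genes, -0.69, and Adora2a was near 0 with them (-0.023). Over the 22 pups, Rgs9 had 0.69, 0.66 and 0.71 with the hypothalamic, thalamic and Cajal-Retzius genes and -0.080 with the transcription factors, and Ppp1r1b had 0.48, -0.64 and 0.64 where it is given above. With the pallial genes, Tac1 was then at -0.57, while Adora2a (0.45), Ebf1 (0.28), Drd1 (0.14) and Drd2 (0.080) were above 0.

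**Figure D3:**
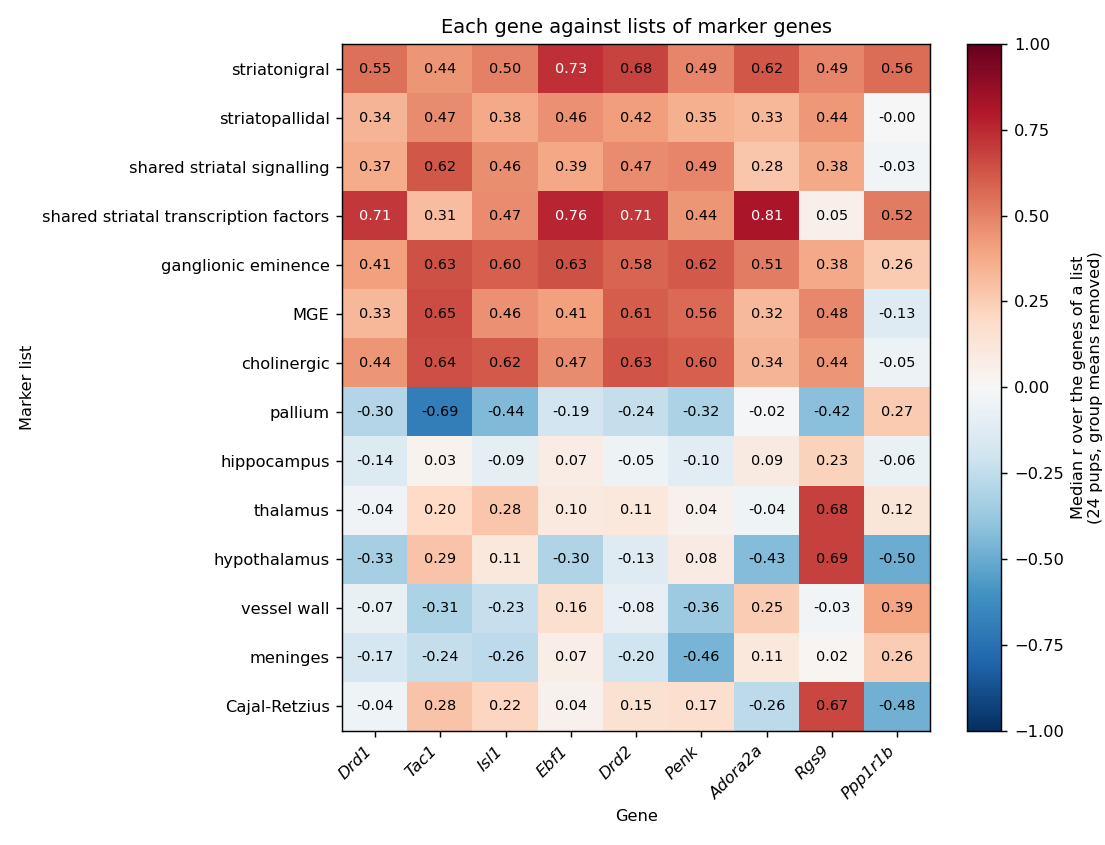
Median r (24 pups, group means removed) of each of the 9 genes, in columns, with the genes of 14 marker lists, in rows, coloured from -1 (blue) to 1 (red). The columns from Drd1 to Adora2a are red in the 7 upper rows, from striatonigral to cholinergic, and blue for pallium (-0.69 to -0.023, of which 4 turn above 0 over 22 pups), whereas Rgs9 is reddest for thalamus, hypothalamus and Cajal-Retzius cells (0.67 to 0.69).

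The pups at the ends of the set were also at the ends of the marker lists. Saline pup 2.1 had the highest summed level of 24 pups for all 7 striatal, ganglionic eminence, MGE and cholinergic lists and the lowest for the pallial list (127 TPM, saline median 229 TPM). Its ganglionic eminence sum was 89.5 TPM, against a saline median of 54.8 TPM, and its MGE sum 116 TPM, against 76.6 TPM. A sum leans on the genes with the highest values, such as Sst for MGE (median 54.0 TPM) and Dlx1 for ganglionic eminence (28.0 TPM). Low Protein pup 1.1 was ranked 22 to 24 on the same 7 lists, with 38.0 TPM for ganglionic eminence and 0.0875 TPM for the cholinergic genes, was second on the pallial list (282 TPM) and the highest of all on the hippocampal list (19.1 TPM). Low Protein pup 2.3 was the highest on the hypothalamic list (3.75 TPM, Low Protein median 0.366 TPM) and ranked 23 on the pallial list (185 TPM). Poly I:C pup 2.2, the highest for Ppp1r1b and the lowest for Tac1, was the highest on the pallial (288 TPM) and thalamic lists (5.60 TPM) and the lowest on the MGE list (29.6 TPM). The part of these lists in the results for the 9 genes was not tested. Estimated depth was 27.3 M reads in Saline pup 2.1 and 62.3 M in Low Protein pup 1.1.

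Each treatment group was then compared with saline, 6 pups against 6, by limma on log2 values with all 24 pups in the fit. A gene was called at an unadjusted p under 0.05, and p-values adjusted over all 13371 genes are given beside it. Of the 27 comparisons, 1 was called, and no gene of the set passed an adjusted p of 0.05 in any group. In no comparison were the 2 groups of pups free of overlap, which 0.434% to 0.875% of all genes were. The comparisons share the saline pups. Limma, and the exact permutation test given below, treat the pups as independent. The treatment was given to dams, with 2 litters per group, so their p-values do not measure the spread between dams.

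In MAM, Tac1 was lower by a log2 fold change of -0.75 (SE 0.317, 95% interval -1.41 to -0.091), or to 0.595 of the saline level. Its limma p was 0.0276 and its adjusted p 0.509, and the exact two-sided permutation p was 0.013. Tac1 was 1 of 9 genes called in MAM, where 9.79% of all genes tested were called, 7.64% lower and 2.15% higher, and 0.015% passed the adjusted threshold. The call was lost without Saline pup 2.1, where the log2 fold change was -0.54 and the limma p 0.0906. Drd1 had a log2 fold change of -0.52 (SE 0.302, 95% interval -1.15 to 0.10), a limma p of 0.0973 (adjusted 0.549) and an exact permutation p of 0.0346, with all 6 MAM pups below the saline median. It was at -0.34 without Saline pup 2.1. In the mean, Drd1 was 1.57 ± 0.677 TPM in saline and 1.03 ± 0.117 TPM in MAM (SD, n = 6).

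The other 7 genes in MAM had log2 fold changes from -0.47 (Isl1, 95% interval -1.53 to 0.59) to 0.053 (Adora2a, 95% interval -0.31 to 0.41). Ebf1 and Drd2 were at -0.34 and -0.39, Rgs9 and Penk at -0.18 and -0.067, and Ppp1r1b at 0.045. The median over the 9 genes was -0.34, with 7 of 9 below 0, beside a median of -0.071 and 70.6% below 0 over all genes tested. Without Saline pup 2.1 the median over the 9 was -0.11, Drd2 was at -0.22, Isl1 at -0.19, Ebf1 at -0.11, Rgs9 at -0.017, Penk at 0.0010, Ppp1r1b at 0.11 and Adora2a at 0.15.

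In Low Protein, 0 of 9 genes were called by limma at either threshold, where 7.08% of all genes tested were called at an unadjusted p under 0.05 and none at an adjusted one (4.43% lower and 2.65% higher without adjustment). Isl1 had the largest log2 fold change of the set, -0.56 (SE 0.512, 95% interval -1.62 to 0.50), with an exact permutation p of 0.548. Only 2 of the 6 Low Protein pups were below the saline median of Isl1, and its value was 0.045 with Low Protein pup 1.1 left out. Tac1 (-0.44, 95% interval -1.10 to 0.22), Drd2 (-0.35, -0.97 to 0.26), Penk (-0.25, -0.67 to 0.17), Drd1 (-0.23, -0.85 to 0.40), Ebf1 (-0.23, -0.88 to 0.43) and Rgs9 (-0.22, -0.79 to 0.36) had intervals that included 0, as did Adora2a (-0.0063) and Ppp1r1b (0.055). The median over the 9 was -0.23 with 8 of 9 below 0, beside -0.015 and 54.9% over all genes. The same omission left Tac1 at -0.26, Rgs9 at -0.16, Drd2 at -0.058, Drd1 at -0.049, Penk at -0.027 and Ebf1 at 0.0070, and leaving out Saline pup 2.1 instead left Drd1 at -0.039, Rgs9 at -0.057, Penk at -0.18, Drd2 at -0.19, Tac1 at -0.23 and Isl1 at -0.27. Leaving out Saline pup 2.1 and Low Protein pup 1.1 gave a median of 0.14, with 2 of 9 below 0.

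In Poly I:C, 0 of 9 genes were called by limma at either threshold, where 9.2% of all genes tested were called at an unadjusted p under 0.05 and none at an adjusted one (5.35% lower and 3.85% higher without adjustment). Tac1 had a log2 fold change of -0.52 (SE 0.317, 95% interval -1.18 to 0.13), with 5 of 6 pups below the saline median and an exact permutation p of 0.18. Drd1 was at -0.33 (95% interval -0.95 to 0.30) and Penk at -0.23 (-0.65 to 0.19). Isl1 was at 0.13, with a 95% interval of -0.93 to 1.20, the widest of the group. Drd2 (-0.14), Adora2a (-0.092), Rgs9 (-0.046), Ebf1 (-0.025) and Ppp1r1b (0.024) completed the set. The median was -0.092 with 7 of 9 below 0, beside 0.0027 and 49.3% over all genes. With Saline pup 2.1 left out it was 0.025, Tac1 was at -0.32, Penk at -0.16, Drd1 at -0.14, Isl1 at 0.42, Ebf1 at 0.20, Rgs9 at 0.11, Drd2 at 0.025 and Adora2a at 0.0023.

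Across the 4 groups together, no gene of the set passed limma's F test, for which 12.3% of all genes had an unadjusted p under 0.05. The lowest F test p was that of Tac1, 0.15 (adjusted 0.538). By group mean, Tac1 went from saline (0.902 ± 0.430 TPM, SD, n = 6) through Low Protein (0.671 ± 0.271) and Poly I:C (0.622 ± 0.248) to MAM (0.499 ± 0.0655). Drd1 followed the same order, with 1.45 ± 0.813 TPM in Low Protein and 1.20 ± 0.276 TPM in Poly I:C between the saline and MAM means given above. Drd2 went from saline (0.0713 ± 0.0268 TPM) through Poly I:C (0.0634 ± 0.0162) and Low Protein (0.0590 ± 0.0249) to MAM (0.0527 ± 0.0106). Neighbours in these orders overlapped in their pups' values.

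**Figure D4:**
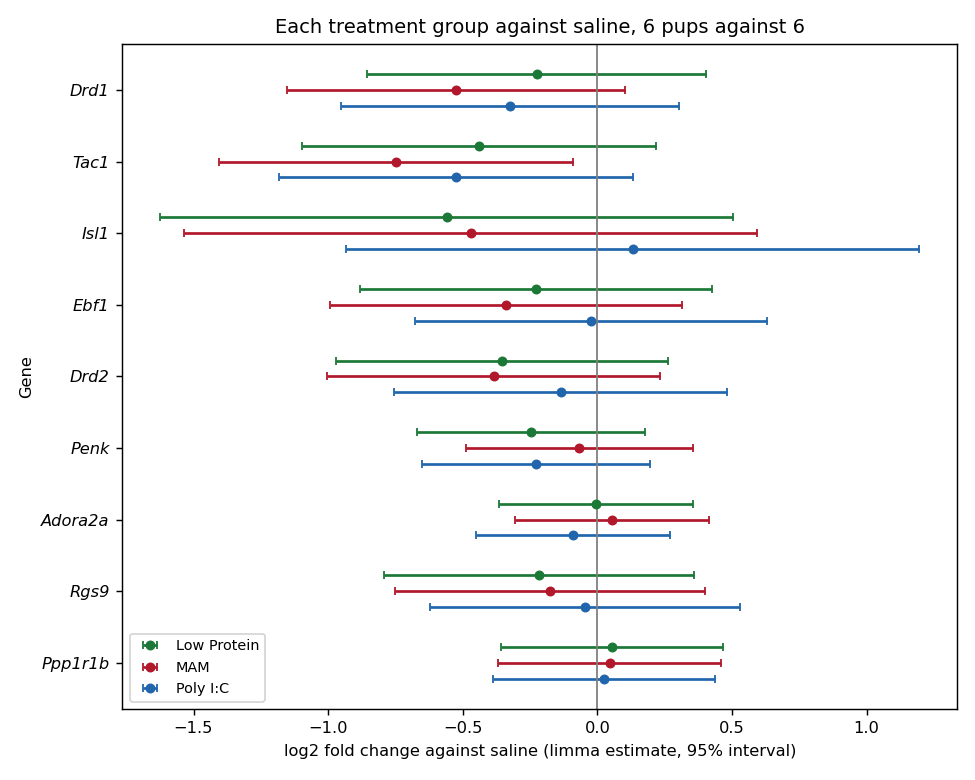
Log2 fold change of each of the 9 genes in each treatment group (colours) against saline, as limma estimates (points) with 95% intervals (bars), 6 pups against 6. The interval of Tac1 in MAM (-1.41 to -0.091) is the single one that leaves out 0.

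Of the 26 other striatal genes, 3 (11.5%) were called lower in Low Protein and none higher, where 4.43% of all genes were called lower. They were Bcl11b (log2 fold change -0.29), the adenylyl cyclase Adcy5 (-0.26) and the small G protein Rasd2 (-0.56). In MAM, 1 (3.85%, against 7.64%) was called lower, the retinoic acid receptor Rarb (-0.62). Poly I:C had 2 (7.69%, against 5.35%), Gng7 (-0.49) and Rasgrp2 (-0.36). The signs were below 0 for 24, 26 and 20 of the 26 genes, with medians of -0.26, -0.24 and -0.21, beside 54.9%, 70.6% and 49.3% of all genes tested. Without Saline pup 2.1 they were below 0 for 24, 22 and 19, with medians of -0.19, -0.19 and -0.16. No adjusted p was under 0.05, the lowest by limma being 0.41 in Poly I:C, 0.51 in MAM and 0.636 in Low Protein. The genes called lower with that pup left out were Rasgrp2 in Poly I:C and Rasd2 in Low Protein, with none in MAM by limma at an unadjusted p under 0.05, and Zfp521 was called higher in Poly I:C (0.22). With Low Protein pup 1.1 left out, Rasd2 alone was called in Low Protein. The same omission gave 2 genes called lower in MAM and 3 in Poly I:C. Gnal was the added gene in both, at unchanged log2 fold changes of -0.44 and -0.41.

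Of 16 genes in the ganglionic eminence, MGE and cholinergic lists, 1 (6.25%) was called lower in Poly I:C, 3 (18.8%) in MAM and 9 (56.2%) in Low Protein, and none higher, beside 5.35%, 7.64% and 4.43% of all genes called lower. In Low Protein these were Dlx1 (-0.29), Dlx5 (-0.38), Gad1 (-0.47), Gad2 (-0.39), Lhx6 (-0.48), Lhx8 (-1.83), Chat (-1.77), Slc18a3 (-1.23) and Gbx1 (-1.43). In MAM they were Dlx1 (-0.26), Gad1 (-0.43) and Lhx6 (-0.34). Sst (-0.65) was the gene in Poly I:C. An added limit of 0.6 on the absolute log2 fold change would leave Lhx8, Chat, Slc18a3 and Gbx1 in Low Protein, Sst in Poly I:C, none of the 16 in MAM, and of the 26 striatal genes only Rarb in MAM. Chat rested on a median of 5.44 estimated reads. The study of these same pups had reported Dlx1, Dlx5, Gad1, Lhx6 and Nkx2-1 as lower in treated groups, so the shares are not independent of it. Its quantitative PCR found Dlx1, Dlx5 and Nkx2-1 lower after MAM and Low Protein, and Lhx6 lower after every treatment. Here Nkx2-1 was called in no group (limma p 0.148 to 0.917). The study also described Dlx1, Dlx5 and Lhx6 as lower under every treatment. For Poly I:C none of those 3 genes was called here (limma p 0.263, 0.390 and 0.148), and for MAM Dlx5 was not (0.166). All 16 genes also had an r above 0 with the mean of the 9 genes, so they are not separate observations. Without Saline pup 2.1, the counts were 1 in Poly I:C, 0 in MAM (by limma at an unadjusted p under 0.05) and 3 in Low Protein, and without Low Protein pup 1.1 only Lhx6 was called in Low Protein. Lhx2, a selector gene of the cortex, was called higher in all 3 groups (0.25, 0.25 and 0.28), Emx2 in Low Protein (0.26) and Pax6 in Poly I:C (0.28). With Saline pup 2.1 left out none of Lhx2, Emx2 and Pax6 was called (limma p 0.0729 to 0.146). Lhx2 was then at 0.12, 0.11 and 0.14, Emx2 at 0.16 and Pax6 at 0.21. With Low Protein pup 1.1 left out, Lhx2 was not called in Low Protein (0.21). Outside these lists, Ntng1 (-0.39) and the pericyte gene Rgs5 (-0.28) were called lower in MAM and Lhx9 (0.48) higher in Poly I:C. Without Saline pup 2.1, Rgs5 was still called (-0.31), but not Ntng1 (-0.33) or Lhx9 (0.50), and Lhx9 was also not called without Low Protein pup 1.1. No hippocampal, hypothalamic, meningeal or Cajal-Retzius gene was called by limma at an unadjusted p under 0.05.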

How the data were processed

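RNA of 24 pups (6 per group) was sequenced after TruSeq Stranded mRNA preparation. The authors aligned reads with STAR (2.4.1d) to rn6, quantified them with the Partek E/M tool and deposited TPM values with an offset of 0.0001. These sum to 70350.1 in every pup. Reads per pup were estimated from the step that 1 read is worth in value times GRCr8 genomic span. Of low values, 46.3% to 54% lay within 0.05 of a whole read (10% by chance), so no count test was run, and the depths are approximate.

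Log2 of the deposited TPM values was compared by limma (3.58.1, R 4.3.3; lmFit, eBayes, Benjamini-Hochberg) over 13371 genes above the offset in at least 18 pups, all 24 pups in the fit. A fold change of a low gene depends on the offset. The smallest exact permutation p for 6 against 6 is 0.00216. Pairs of genes had 100000 resamples, for which the smallest p is 1e-05. The limma script was tested on simulated data. The 9 genes and the marker lists were chosen with earlier results of these data known. Named were the 9 genes, of each list the first 3 genes and those called, and the 12 genes most and 3 least like the set, although not every gene under this rule is printed and one is not reported here, and Neurod2, Neurod6, Fezf2 and Cnr1 were chosen after their values were seen. The study's added fold limit in Low Protein and Poly I:C was not part of the call. Alternatives changed the filter, scaling, pseudocount, fit, litter and pups, and those without Saline pup 2.1 and Low Protein pup 1.1 and the fold limit were chosen after the values were seen.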

Additional observations from a re-analysis of the deposited data

Results flagged for a closer look

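In 4 of 36 groups of 6 pups (9 genes in 4 groups), 1 pup lay farther from its neighbour than Dixon's 95% critical value for the gap over the range on the log2 scale, and chance flags about 5% of groups. For Isl1 in Low Protein the ratio was 0.732, pup 1.1 having 0.0343 TPM and the next pup 0.273 TPM. The same pup was the lowest for Penk, with a ratio of 0.640 (1.44 against 3.02 TPM). In Poly I:C, Penk in pup 2.2 had a ratio of 0.651 (2.06 against 3.04 TPM). Ppp1r1b in Low Protein pup 2.3 had a ratio of 0.650 (1.19 against 2.13 TPM). Saline pup 2.1, the highest pup for 7 genes, did not pass this value for any of them.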

How the results depend on the processing

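The count of 9 genes called in MAM (1, Tac1) was 0 over genes with every group mean above 1 (which leaves Tac1 out), without Saline litter 2, without MAM litter 1 and without MAM litter 2, and 2 (Tac1 and Drd1) with only the 12 pups compared or with litter means. In Poly I:C it was 1 (Tac1) without litter 1. Leaving out each pup gave 0 to 1 in MAM and Poly I:C, with 0 in MAM without Saline pup 2.1 and 1 in Poly I:C with its pup 1.3 left out. In Low Protein it was 0 throughout, by an unadjusted p under 0.05. The median r over 36 pairs was 0.39 without Saline pup 2.1 and Low Protein pup 1.1. With the replicate block, the log2 fold change of Tac1 in MAM was -0.75 (limma p 0.0432), and the counts were 1 in MAM and 0 in the others. The deviations of same-numbered pups from their group means had r of -0.10 to 0.18 (36 pairs, median 0.031). The median was -0.0071 for pups of different numbers. Whether the numbers pair the pups in some other way cannot be told from these values.

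The directions that turned belonged to genes that were not called. In Low Protein, Adora2a was at 0.019 under median of ratios scaling, 0.0067 with a pseudocount of 1 and 0.066 without Saline litter 2. Ppp1r1b was at -0.11 without Saline litter 1 and -0.10 without Low Protein litter 1, and Isl1 at 0.0076 without the latter. Without Saline pup 2.1 and Low Protein pup 1.1, the values were Drd1 0.14, Isl1 0.33, Ebf1 0.24, Drd2 0.10, Penk 0.041 and Adora2a 0.19. In MAM, without Saline litter 1, Adora2a was at -0.018 and Ppp1r1b at -0.12. Penk was at 0.022 without MAM litter 1, and Adora2a at -0.041 without MAM litter 2. In Poly I:C, Isl1 and Ppp1r1b were at -0.17 and -0.14 without Saline litter 1, Ebf1 and Rgs9 at 0.18 and 0.11 without Saline litter 2, Isl1 at -0.28 with that group's litter 1 left out, and Drd2, Rgs9 and Ppp1r1b at 0.11, 0.33 and -0.16 with its litter 2 left out. The cause was not tested.

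Leaving out each pup turned the sign in these ranges. They were -0.77 to 0.045 for Isl1, -0.42 to 0.0070 for Ebf1, -0.12 to 0.12 for Adora2a and -0.021 to 0.24 for Ppp1r1b in Low Protein. In MAM they were -0.14 to 0.0010 for Penk, -0.0072 to 0.15 for Adora2a and -0.031 to 0.11 for Ppp1r1b. For Poly I:C they were -0.079 to 0.42 for Isl1, -0.15 to 0.20 for Ebf1, -0.24 to 0.025 for Drd2, -0.15 to 0.0023 for Adora2a, -0.18 to 0.11 for Rgs9 and -0.11 to 0.15 for Ppp1r1b. Of 774 values of single genes under the alternatives, 712 kept their direction and their side of the threshold, most of them never past it. Depth is an estimate, and pups of 1 litter are not independent.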

Other observations

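Each of the 9 genes was also set against all others singly, by r over 24 pups after group means were subtracted. These genes were named after their values were seen, and no test was run. The gene most like Rgs9 was Efna5 (r = 0.92), followed by Prmt2 (0.91) and Astn2 (0.90). For Ppp1r1b they were Sema7a (0.91), Hps6 (0.89) and Erf (0.87). Penk was most like Crabp1 (0.90), a retinoic acid binding protein, Adora2a most like Tspan9 (0.93), and Isl1 most like Gad2 (0.86), followed by Slc10a4 (0.84). Rxrg was among the 3 genes most like Drd1 (0.91), Ebf1 (0.92), Drd2 (0.92) and Adora2a (0.90).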
